A study of Rattus norvegicus with 59 samples.

Results

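The apolipoproteins examined here are Apoa1, Apoa2, Apoa4, Apoa5, Apob, Apoc1, Apoc2, Apoc3, Apoe and Apom, the protein components that the liver gives to plasma lipoproteins. They were found by symbol in the annotation of the array, which pairs these 10 genes with 12 of the 31042 probe sets that are not controls. Apob and Apoe have 2 probe sets each, and none of the 12 is shared with another symbol. Each gene was read on its brightest probe set, as were the 14217 genes of the array that have a probe set of their own. RNA from whole liver was measured on 59 Affymetrix rat arrays after a single intraperitoneal injection of CdCl2 or Na2Cr2O7 into male Sprague-Dawley rats, whose age is not given in the sources used here. Livers exposed to Cd (1.25 mg/kg) were taken on day 1 (4 livers, numbered 1, 2, 4 and 5), day 3 (5 livers) and day 7 (5 livers), and those exposed to Cr (20 mg/kg by the labels, whereas a passage of the methods names another dose) on days 1, 3 and 7 (5 livers each). Each metal had 5 control livers of its own on each day, from rats given sterile saline, the vehicle of all injections. The labels call the replicates biological, and a Cd liver of day 1 was excluded by the study and is not analysed here. Signals are log2 values, so a difference of 1 is a doubling.

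Apolipoproteins wrap the lipid core of lipoproteins, hold the particles soluble in plasma and direct them to enzymes and receptors. Apob is the backbone of very low density lipoprotein (VLDL), which exports triglyceride from the liver. Apoa1 and Apoa2 are the main proteins of high density lipoprotein (HDL), the small C apolipoproteins set the pace at which lipases empty the particles, and Apoe is the ligand by which remnants return to the hepatocyte. Hepatocytes make all of these, and macrophages also make Apoe.

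The 10 genes were among the strongest signals of the arrays. Mean signals over the 59 arrays ran from 11.40 for Apoa4 and 11.47 for Apoa5 to 14.00 for Apob and 14.30 for Apoc3. The highest value of all was 14.89. How far signals this near the top of the range can still vary or move was not tested. Of the 139 probe sets with a mean of 13 or more, a limit set after the values were seen, 7 belonged to the 10 genes. The pooled standard deviation within groups was 0.04 for Apoc3, 0.06 for Apob, 0.06 for Apoc1 and 0.07 for Apoe. It was 0.32 for Apoa4, the most variable of the 10, against a median of 0.16 over all probe sets with a mean of 6 or more. Bright probe sets as a class varied less, with a median of 0.09 for the 139. Few of the 139 moved far on day 1, as 1.44% of them differed by 1.8-fold or more between Cd livers and controls. That share was 4.33% over all 13039 probe sets with a mean of 6 or more. After Cr these shares were 0.72% and 5.36%. The median absolute log2 fold change of the 139 after Cd was 0.18, against 0.15 for all. After Cr it was 0.19, against 0.24.

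Some arrays went against the others of their group, and these are named where they touch a result. Lcn2, an acute injury marker, had signals of 12.95 to 13.64 in 4 Cd livers of day 3 and 5.12 in liver 5, against 4.64 to 7.06 in controls of that day. It reached 12.53 in Cd liver 2 of day 7, against 5.32 to 6.71 in the other 4 and 4.21 to 6.93 in controls. In the Cd controls of day 1, Lcn2 was 7.73, 4.23, 9.94, 10.27 and 9.56. All other control livers had 4.21 to 7.06, and the Cd livers of day 1 had 11.96 to 13.91. The part of these control signals in the Cd comparisons of day 1 was not tested. Cr liver 5 of day 1 had the lowest mean correlation with the other arrays of its group (0.962). As a sign of RNA quality, the difference between the 3′ and 5′ probe sets of GAPDH had a median of 0.20 (0.14 to 0.82) in Cr livers of day 1 and 0.47 (0.39 to 0.85) in their controls, while that of beta-actin was 1.69 (1.62 to 2.51) in the Cr livers and 2.13 (1.92 to 2.46) in controls. The part of this shift in the Cr values of day 1 was not tested. Markers of Kupffer cells, the resident macrophages, were lower in Cd livers of day 1 for 10 of 10 measured genes, with a median log2 fold change of -3.17. The list's mean signal was 4.88 to 7.53 in these Cd livers and 8.50 to 8.97 in controls. Markers of neutrophils and monocytes had a list mean of 6.65 to 7.31 in the same Cd livers and 5.12 to 5.61 in controls. Hepatocyte markers had a list mean of 12.93 to 13.37 over all arrays. In Cr livers of day 1 it was 12.93 to 13.22, against 13.16 to 13.26 in their controls. The median log2 fold change of the list on day 1 was -0.01 after Cd and -0.11 after Cr. Of the 9 measured, 2 were higher and 3 lower after Cd on day 1, Ttr (-0.18), Cps1 (-0.31) and Cyp2e1 (-0.54) being the lower ones. After Cr 1 was higher and 3 were lower, among them Cps1 (-0.32) and Cyp2e1 (-0.57), and the part of these shifts in the apolipoprotein signals was not tested. The 5 measured markers of intestinal epithelium, the other source of Apoa1, Apoa4 and Apob, all had mean signals under 6. In whole liver, fewer cells of a type and less RNA per cell cannot be told apart.

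On day 1 after Cd, 5 of the 10 apolipoprotein transcripts fell, 1 rose and 4 did not pass the test (limma, Benjamini-Hochberg adjustment over 12977 probe sets, adjusted p of 0.05 or less). Of all probe sets tested, 26.6% were called in this comparison, 1886 of them higher and 1561 lower. With arrays centred on their median these were 1655 higher and 1787 lower. Apoa2, Apoa4, Apoc2, Apoc3 and Apom were the 5 lower transcripts and Apob was the higher one. The median log2 fold change of the 10 was -0.12, against 0.01 over all probe sets tested and -0.08 over the 139 bright ones. On day 1 after Cr, 5 fell, 1 rose and 4 did not pass. Here the background was larger, at 49.9% of 13103 probe sets called, 3993 of them higher and 2549 lower, so that 6 of 10 lay near it. The median was -0.11 for the 10, 0.05 for all and -0.08 for the 139 bright probe sets, 7 of which are among the 10. The directions after Cr depended on the scaling of the arrays. With arrays centred on their median the calls were 2998 higher and 3521 lower, Apob (-0.14), Apoc3 (-0.13) and Apoe (-0.16) were called lower as well, and Apoa1 was not called. Apoa2, Apoa4, Apoc2 and Apom fell after both metals, which is 4 of 10, against 6.68% of the 12808 probe sets tested for both. That share was computed on the values as deposited only. Of the 4, only Apoa2 and Apoc2 kept both calls under every setting other than the 1.8-fold threshold and with each liver left out. Exposed and control livers did not overlap for 5 of the 10 after Cd, against 19.4% of all probe sets, and for 2 of the 10 after Cr, against 22.6%. None of the 10 changed by 1.8-fold, the size the study asked of a changed gene, against 4.06% of probe sets that passed the test with that fold after Cd and 5.25% after Cr.

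**Figure D1:**
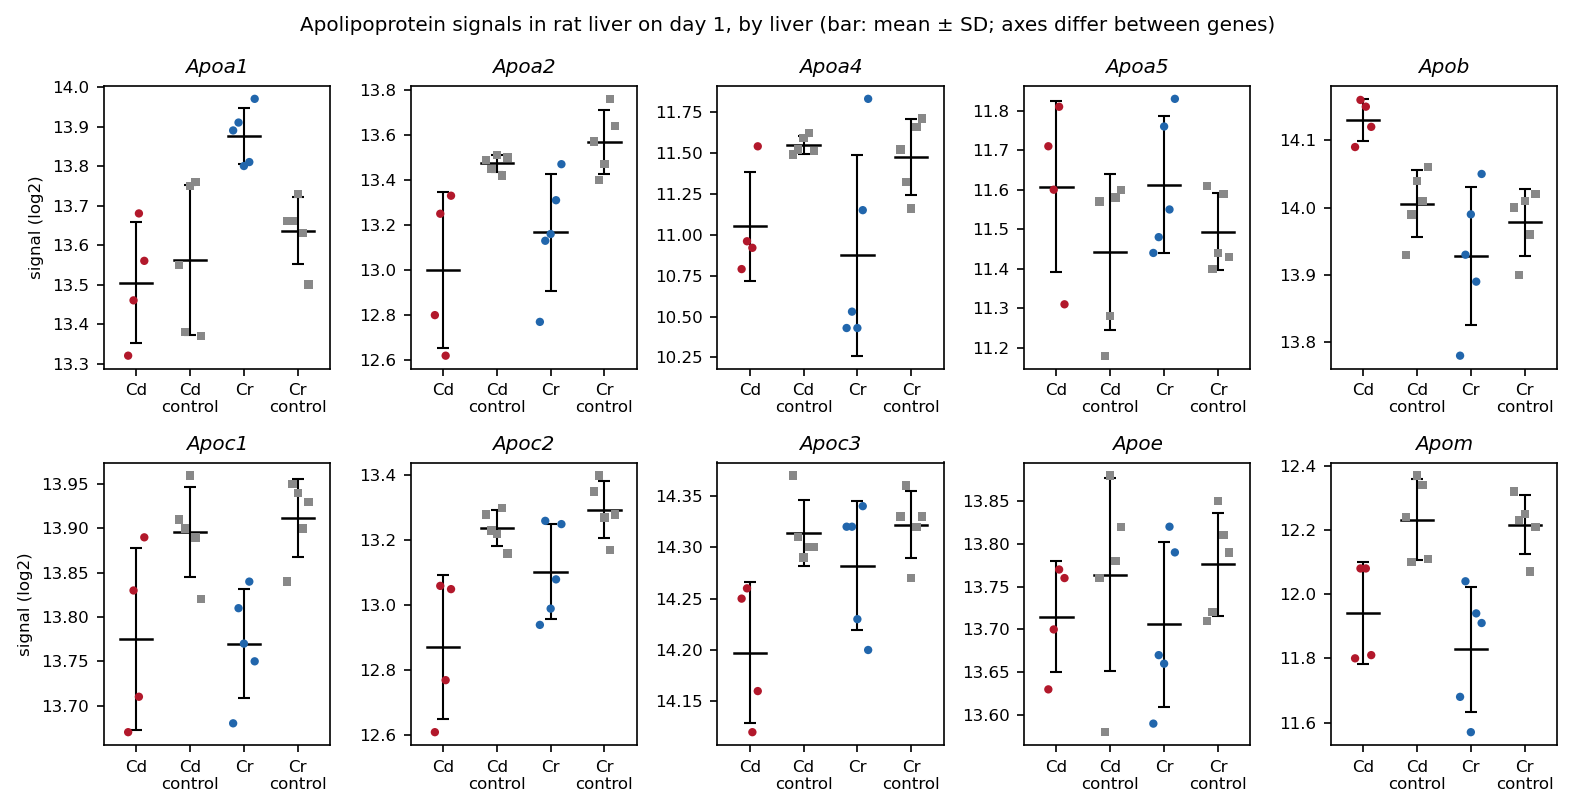
Signal (log2) of the 10 apolipoprotein transcripts in each liver on day 1, with circles for Cd and Cr livers, squares for their controls and bars for the mean ± SD. Apoa2, Apoc2 and Apom lie below all controls after Cd, Apob lies above all controls after Cd, and Apoa1 lies above all controls after Cr.

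Among the HDL apolipoproteins, Apoa2 fell by a similar amount after both metals. Its signals were 12.80, 13.25, 12.62 and 13.33 in Cd livers 1, 2, 4 and 5 of day 1, against 13.49, 13.45, 13.51, 13.42 and 13.50 in the 5 control livers. All 4 Cd livers lay below all 5 controls, and the Cd livers spread far wider. The log2 fold change was -0.48 (SE 0.11, limma adjusted p 0.00194), which is 0.719 of the control signal. In the Cr livers of day 1 the signals were 12.77, 13.13, 13.16, 13.31 and 13.47, against 13.57, 13.40, 13.47, 13.76 and 13.64 in controls. Only Cr liver 5 reached the range of the controls. The log2 fold change was -0.40 (SE 0.09, limma adjusted p 0.000708). The exact two-sided permutation test gave p = 0.0159 after Cd, the smallest it can give with 4 against 5 livers, and p = 0.0238 after Cr. The difference between the metals was -0.08 (95% interval -0.36 to 0.21), and it did not pass the test.

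Apoa1, the protein that starts HDL and activates its cholesterol esterifying enzyme, was not among the transcripts that fell. After Cr its signals on day 1 were 13.89, 13.91, 13.80, 13.81 and 13.97, against 13.66, 13.66, 13.73, 13.63 and 13.50 in controls. All Cr livers were above all controls, and the log2 fold change was 0.24 (SE 0.09, limma adjusted p 0.0305). The call was lost without Cr liver 1, 2 or 5 (0.22 to 0.24, adjusted p 0.0509 to 0.0614) and without control liver 5 (0.21, adjusted p 0.0819). It was also lost with arrays centred on their median (0.15, adjusted p 0.13), with array weights (0.19, adjusted p 0.0834) and with no filter on low signals (adjusted p 0.0522). After Cd the signals were 13.32, 13.46, 13.68 and 13.56, against 13.55, 13.38, 13.75, 13.76 and 13.37 in controls. The Cd livers lay inside the range of the controls apart from liver 1 (log2 fold change -0.06, 95% interval -0.28 to 0.16). The difference of -0.30 between the Cd and Cr effects had an adjusted p of 0.107 and did not pass.

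Apom, a lipocalin that rides on HDL and carries the signalling lipid sphingosine phosphate, fell after both metals. The signals were 11.80, 12.08, 12.08 and 11.81 in Cd livers, against 12.24, 12.10, 12.37, 12.34 and 12.11 in controls. In Cr livers they were 11.68, 12.04, 11.57, 11.94 and 11.91, against 12.32, 12.23, 12.25, 12.07 and 12.21 in controls. Exposed livers lay below every control liver in both sets, with the nearest Cd and control livers at 12.08 and 12.10. The log2 fold change was -0.29 after Cd (SE 0.08, limma adjusted p 0.00671) and -0.39 after Cr (SE 0.09, limma adjusted p 0.000506). Against the controls of all 3 days pooled, the design of the study, the Cd change was -0.17 (adjusted p 0.0749) and did not pass, whereas the Cr call held under every setting other than the 1.8-fold threshold and with every single liver left out.

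Apoa4, which joins triglyceride rich particles and HDL and is made by liver as well as intestine in the rat, showed the largest mean fall and the widest spread. In Cd livers 1, 2, 4 and 5 of day 1 the signals were 10.79, 10.96, 10.92 and 11.54, against 11.49, 11.52, 11.59, 11.62 and 11.51 in controls. Cd livers 1, 2 and 4 lay well below the controls and liver 5 lay among them. In Cr livers the signals were 10.43, 10.53, 10.43, 11.15 and 11.83, against 11.52, 11.32, 11.16, 11.66 and 11.71 in controls. Cr livers 1, 2 and 3 were far below, liver 4 was just under the lowest control and liver 5 was above the highest. The log2 fold change was -0.49 after Cd (SE 0.18, limma adjusted p 0.0398) and -0.60 after Cr (SE 0.21, limma adjusted p 0.0196).

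These 2 calls depended on single livers. The Cd call was lost without Cd liver 1, 2 or 4 (-0.46 to -0.41, adjusted p 0.0855 to 0.142) and without any 1 of the 5 Apoa4 control values (-0.51 to -0.47, adjusted p 0.0544 to 0.0724). It was also lost with plain variances, with no filter and with array weights (adjusted p 0.0535, 0.0671 and 0.0566). Without Cd liver 5 the change was -0.66 (adjusted p 0.00742). Of the 4 Cd livers, liver 5 also had the highest C1qa signal, a Kupffer cell marker, at 8.61 against 5.03 to 5.57 in the other Cd livers and 9.54 to 10.07 in controls. The Cr call was lost without Cr liver 1, 2 or 3 (-0.52 to -0.49, adjusted p 0.0541 to 0.0706), and without Cr liver 5 the change was -0.84 (adjusted p 0.000321). Cr liver 5 had an Lcn2 signal of 10.78, against 6.33 to 8.33 in the other Cr livers of day 1. The part of these marker differences in the Apoa4 signal was not tested. The exact two-sided permutation test on Apoa4 gave p = 0.0635 after Cd and p = 0.0873 after Cr.

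Of the apolipoproteins that act on lipases, Apoc2, the cofactor that lipoprotein lipase needs, fell after both metals. Its signals in Cd livers of day 1 were 12.61, 13.06, 12.77 and 13.05, against 13.28, 13.23, 13.22, 13.30 and 13.16 in controls. Every Cd liver was below every control, and the log2 fold change was -0.37 (SE 0.08, limma adjusted p 0.00103), the smallest adjusted p of the 10 genes after Cd. In Cr livers the signals were 12.94, 13.26, 12.99, 13.08 and 13.25, against 13.35, 13.40, 13.27, 13.17 and 13.28 in controls. Here Cr livers 2 and 5 lay within the range of the controls, and the change was -0.19 (SE 0.06, limma adjusted p 0.00677). The difference between the metals was -0.18 (95% interval -0.37 to 0.01) and did not pass.

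Apoc3, which restrains lipoprotein lipase and the uptake of remnants, was the brightest of the 10. Its signals were 14.25, 14.26, 14.12 and 14.16 in Cd livers of day 1, against 14.37, 14.31, 14.29, 14.30 and 14.30 in controls. The groups did not overlap, and the change was small at -0.12 (SE 0.04, limma adjusted p 0.0446), or 0.921 of the control signal. The call was lost without Cd liver 4 or 5 (-0.11 to -0.09, adjusted p 0.105 to 0.169) and without control liver 1, 2, 4 or 5 (-0.12 to -0.10, adjusted p 0.0595 to 0.102). It was also lost with no filter, after repeated quantile normalization and with array weights (adjusted p 0.126, 0.0885 and 0.0672). After Cr the change in Apoc3 was -0.04 (95% interval -0.13 to 0.05).

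Apoc1, an activator of the enzyme that esterifies HDL cholesterol, had signals of 13.68, 13.81, 13.77, 13.84 and 13.75 in Cr livers of day 1, against 13.84, 13.95, 13.94, 13.90 and 13.93 in controls. Only Cr liver 4 touched the lowest control. The log2 fold change was -0.14 (SE 0.04, limma adjusted p 0.0085), and it missed the threshold after repeated quantile normalization (-0.11, adjusted p 0.0523). After Cd it was -0.12 (SE 0.06, limma adjusted p 0.124). Apoa5, which helps lipoprotein lipase clear triglyceride, had 11.31 to 11.81 in Cd livers and 11.18 to 11.60 in their controls, and 11.44 to 11.83 in Cr livers and 11.40 to 11.61 in theirs. It passed the test on no day after either metal, and its day 1 change was 0.16 (95% interval -0.14 to 0.46) after Cd and 0.12 (95% interval -0.06 to 0.30) after Cr.

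Apob was the only 1 of the 10 called higher after Cd. Its signals were 14.09, 14.16, 14.15 and 14.12 in Cd livers of day 1, against 13.93, 13.99, 14.04, 14.01 and 14.06 in controls. All Cd livers were above all controls, with a log2 fold change of 0.13 (SE 0.05, limma adjusted p 0.043), or 1.09 times the control signal. The call was lost without Cd liver 1, 2, 4 or 5 (0.12 to 0.14, adjusted p 0.0532 to 0.102) and without control liver 1, 2 or 4 (0.11 to 0.13, adjusted p 0.0611 to 0.109). It was also lost with no filter, with arrays centred on their median and with array weights (adjusted p 0.116, 0.0758 and 0.0567). In Cr livers the signals were 13.78, 13.93, 13.99, 13.89 and 14.05, against 14.00, 13.90, 14.01, 13.96 and 14.02 in controls, with a change of -0.05 (95% interval -0.15 to 0.05). The second Apob probe set, far dimmer at a mean of 6.97, had a change of 0.04 (SE 0.17) after Cd and 0.03 (SE 0.16) after Cr, neither of which passed. Apoe had 13.63 to 13.77 in Cd livers and 13.58 to 13.88 in controls, a change of -0.05 (95% interval -0.16 to 0.07). That interval stands beside the fall of all 10 measured Kupffer cell markers in the same livers, and the part of Kupffer cells in the Apoe signal was not tested. After Cr the Apoe change was -0.07 (95% interval -0.19 to 0.04), and its second probe set, with a mean of 4.03, was under the signal limit of the test.

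The genes lie in 2 clusters and 3 single places. In the reference gene table, read among coding genes only, Apoa1, Apoc3, Apoa4 and Apoa5 follow each other on chromosome 8, and Apoc2, Apoc4, Apoc1 and Apoe do so on chromosome 1. In the first cluster the log2 fold changes after Cd were -0.06 for Apoa1, -0.12 for Apoc3, -0.49 for Apoa4 and 0.16 for Apoa5. In the same order after Cr, Apoa1 rose by 0.24, Apoc3 had -0.04, Apoa4 fell by 0.60 and Apoa5 had 0.12. In the second cluster Apoc2, Apoc1 and Apoe had -0.37, -0.12 and -0.05 after Cd, and -0.19, -0.14 and -0.07 after Cr.

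Upstream sequences are shown for Apoc2, Apom and Apoa4, the transcripts that fell after both metals and have an entry in the RefSeq promoter table used here (assembly GRCr8). The table matched 6 of the 10 genes, and Apoa1, Apoa2, Apob and Apoc3 were not matched. Each run is the 250 bases before the annotated start, 5′ to 3′ on the strand of the gene. Capitals mark the TATA box TATAAA on the strand of the gene, and on both strands the element CAAAGTCC, of the type bound by hepatocyte nuclear factor 4, and AGGTCA and GGGTCA, the half-sites of which nuclear receptor elements are built.
Apoc2, chr1:88462366-88462615, minus strand: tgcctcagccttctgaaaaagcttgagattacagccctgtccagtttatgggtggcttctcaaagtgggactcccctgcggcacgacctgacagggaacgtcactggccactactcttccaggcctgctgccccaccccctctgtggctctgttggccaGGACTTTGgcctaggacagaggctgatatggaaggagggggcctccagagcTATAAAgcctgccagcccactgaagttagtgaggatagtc
Apom, chr20:3695368-3695617, plus strand: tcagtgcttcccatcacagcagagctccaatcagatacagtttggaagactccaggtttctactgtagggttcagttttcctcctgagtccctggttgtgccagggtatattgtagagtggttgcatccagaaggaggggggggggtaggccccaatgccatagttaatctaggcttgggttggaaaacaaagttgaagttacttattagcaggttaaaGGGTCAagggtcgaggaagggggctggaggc
Apoa4, chr8:55435529-55435778, plus strand: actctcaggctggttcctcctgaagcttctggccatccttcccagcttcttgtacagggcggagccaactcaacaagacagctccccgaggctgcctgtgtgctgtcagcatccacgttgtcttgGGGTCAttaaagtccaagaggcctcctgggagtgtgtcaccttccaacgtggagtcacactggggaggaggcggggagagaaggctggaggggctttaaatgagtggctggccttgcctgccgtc
In Apoc2 the matches were TATAAA at -40 and GGACTTTG, the reverse complement of CAAAGTCC, at -91 from the start. In Apom GGGTCA lay at -31 and in Apoa4 at -125. No match overlapped another. Among 33469 upstream windows of the same length, 8.06% held TATAAA on the strand of the gene, 1.14% CAAAGTCC, 14.1% AGGTCA and 11.9% GGGTCA. A match describes the letters of the window only.

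All calls of apolipoprotein transcripts belonged to day 1. On day 3 after Cd, 0 of the 10 transcripts were called by limma, against 1.39% of all probe sets, and on day 7 again 0, against 0.0231%. After Cr the counts were 0 on day 3, when 0% of probe sets were called, and 0 on day 7, against 0.191%. At an unadjusted p of 0.05 or less in limma there were 1 and 1 of the 10 on days 3 and 7 after Cd, against 11.7% and 8.3% of all probe sets, and 1 and 2 after Cr, against 8.71% and 11.2%. The exact permutation test, unadjusted, put 0 and 0 of the 10 after Cd at 0.05 or less, against 13.4% and 6.4% of all probe sets, and 1 and 3 after Cr, against 10% and 14.1%. Livers did not overlap with controls for 0 of the 10 on days 3 and 7 after Cd, against 3.52% and 1.18% of probe sets, and for 1 of the 10 on each day after Cr, against 2.50% and 3.46%. These were Apoc1 on day 3 and Apoc2 on day 7 (-0.09, exact permutation p = 0.00794, limma adjusted p 0.582). Apoc1 was below its controls in all 5 Cr livers of day 3 (-0.06, exact permutation p = 0.00794, limma adjusted p 0.802) and below the control mean in all 5 of day 7 (-0.11, exact permutation p = 0.0397, limma adjusted p 0.304).

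**Figure D2:**
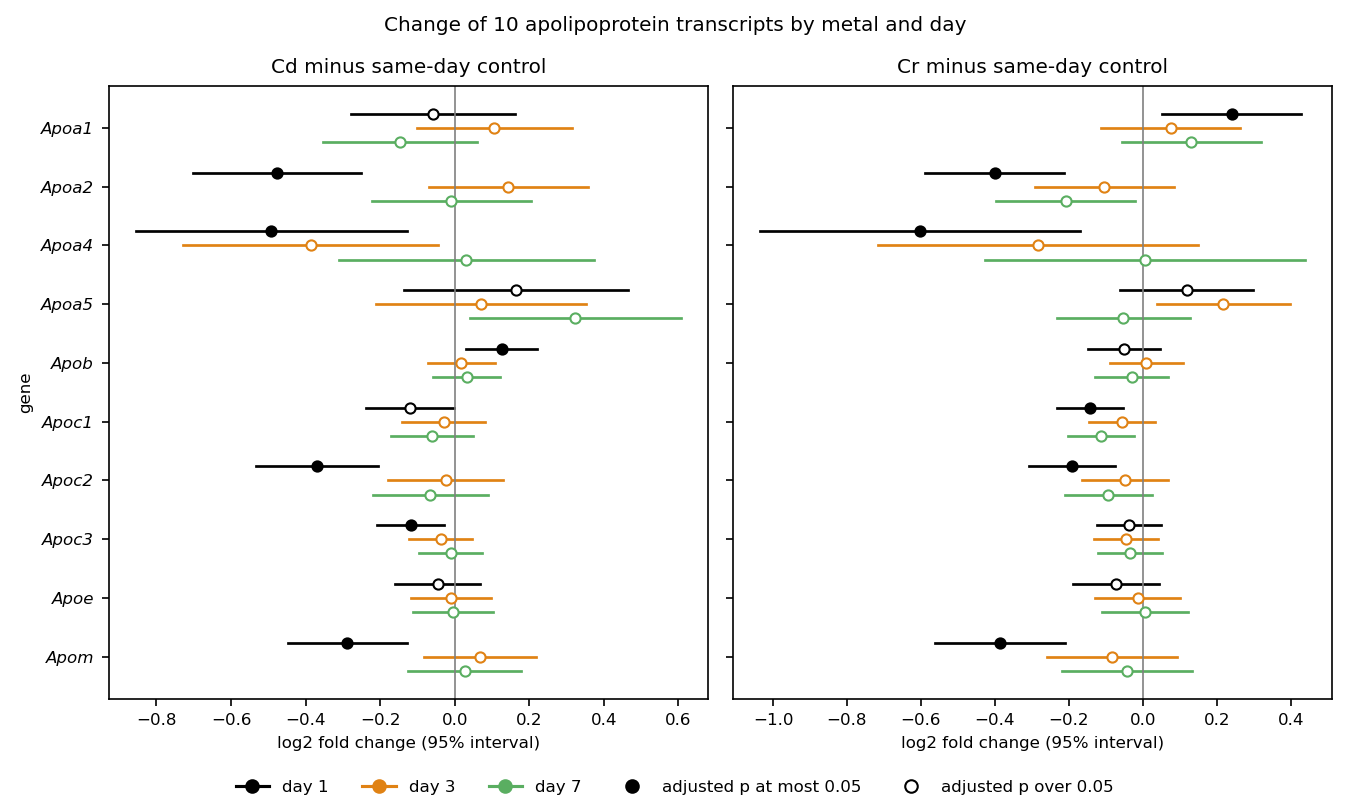
Log2 fold change of each transcript against the controls of the same day, with its 95% interval, for Cd on the left and Cr on the right and days 1, 3 and 7 in black, orange and green. Filled points have an adjusted p of 0.05 or less, and all of them belong to day 1.

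Day 3 signals of Apoa2 were 13.62, 13.61, 13.65, 13.54 and 13.41 in Cd livers, against 13.59, 13.33, 13.48, 13.37 and 13.34 in controls. They overlapped the controls and were, if anything, on the upper side (0.14, SE 0.10, limma adjusted p 0.675). The Cd effect on Apoa2 was therefore lower on day 1 than on day 3 by 0.62 (SE 0.15, limma adjusted p 0.0065). The same test of day 1 against day 3 passed for Apom (-0.36, SE 0.11, adjusted p 0.0259) and Apoc2 (-0.35, SE 0.11, adjusted p 0.0361), which makes 3 of 10, against 12.9% of all probe sets. Against day 7 it passed for Apoa2 (-0.47, SE 0.15, adjusted p 0.0399) and Apom (-0.32, SE 0.11, adjusted p 0.0494), 2 of 10, against 13.3%. For Apom the controls moved too, with means of 12.23, 12.07 and 12.03 on days 1, 3 and 7. The Apom means in Cd livers were 11.94, 12.14 and 12.06. Only the Apoa2 difference between days 1 and 3 held with every single liver left out. The Apom one was lost without Cd liver 1 or 5 or control liver 4 of day 1 (-0.33 to -0.31, adjusted p 0.0507 to 0.0713). For Apoc2 it was lost without Cd liver 1 or 4 of day 1, Cd liver 3 or 5 of day 3 (-0.33 to -0.26), control liver 1 or 4 of day 1 or control liver 1, 2 or 5 of day 3 (-0.33, adjusted p 0.0565 to 0.0628). Those against day 7 were lost in 13 of 19 fits with 1 liver left out for Apoa2 (adjusted p up to 0.124) and in 12 of 19 for Apom (adjusted p up to 0.123).

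After Cr the difference between day 1 and day 7 passed for Apom alone (-0.35, SE 0.12, limma adjusted p 0.0337), 1 of 10, against 27.9%. It was lost in 9 of 20 fits with 1 liver left out (adjusted p 0.0503 to 0.0781). Apom signals on day 7 were 11.94, 11.92, 12.04, 12.11 and 12.03 in Cr livers, against 11.94, 12.08, 11.98, 12.07 and 12.18 in controls, with full overlap. From day 1 to day 7 the Apom mean went from 11.83 to 12.01 in Cr livers and from 12.22 to 12.05 in controls. Between day 1 and day 3 after Cr, 0 of 10 passed in limma, against 29.0%, and 2 had an unadjusted p of 0.05 or less, against 40.6%. Apoa2 had a mean below its controls on day 7, with 13.55, 13.56, 13.47, 13.43 and 13.75 in Cr livers, against 13.68, 13.83, 13.76, 13.76 and 13.77 in controls. Of these Cr livers 4 lay below all controls (-0.21, SE 0.09, limma adjusted p 0.384). The Apoa2 mean in Cr livers was 13.55 on day 3 and again on day 7. In controls it was 13.57, 13.66 and 13.76 on days 1, 3 and 7.

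Apoa4 had the largest mean fall of the 10 on day 3 after Cd, although exposed and control livers overlapped. Its day 3 signals were 10.75, 11.08, 11.21, 10.82 and 11.64 in Cd livers 1 to 5, against 11.54, 10.89, 11.98, 11.49 and 11.52 in controls. Cd livers 1 to 4 were below 4 of the 5 controls, and Cd liver 5, which also had the Lcn2 signal of a control, was above 4 of the 5 and below the highest. The change was -0.39 (SE 0.17, limma adjusted p 0.339), and -0.52 without Cd liver 5 (adjusted p 0.0922). On day 7 the Apoa4 signals were 11.81, 11.75, 11.46, 11.82 and 11.40 in Cd livers, against 11.91, 11.48, 11.46, 11.50 and 11.73 in controls (0.03, 95% interval -0.31 to 0.37). After Cr, day 3 held a single low liver, number 3 at 10.47, with the other 4 at 11.41 to 11.53, against 11.22 to 11.89 in controls.

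**Figure D3:**
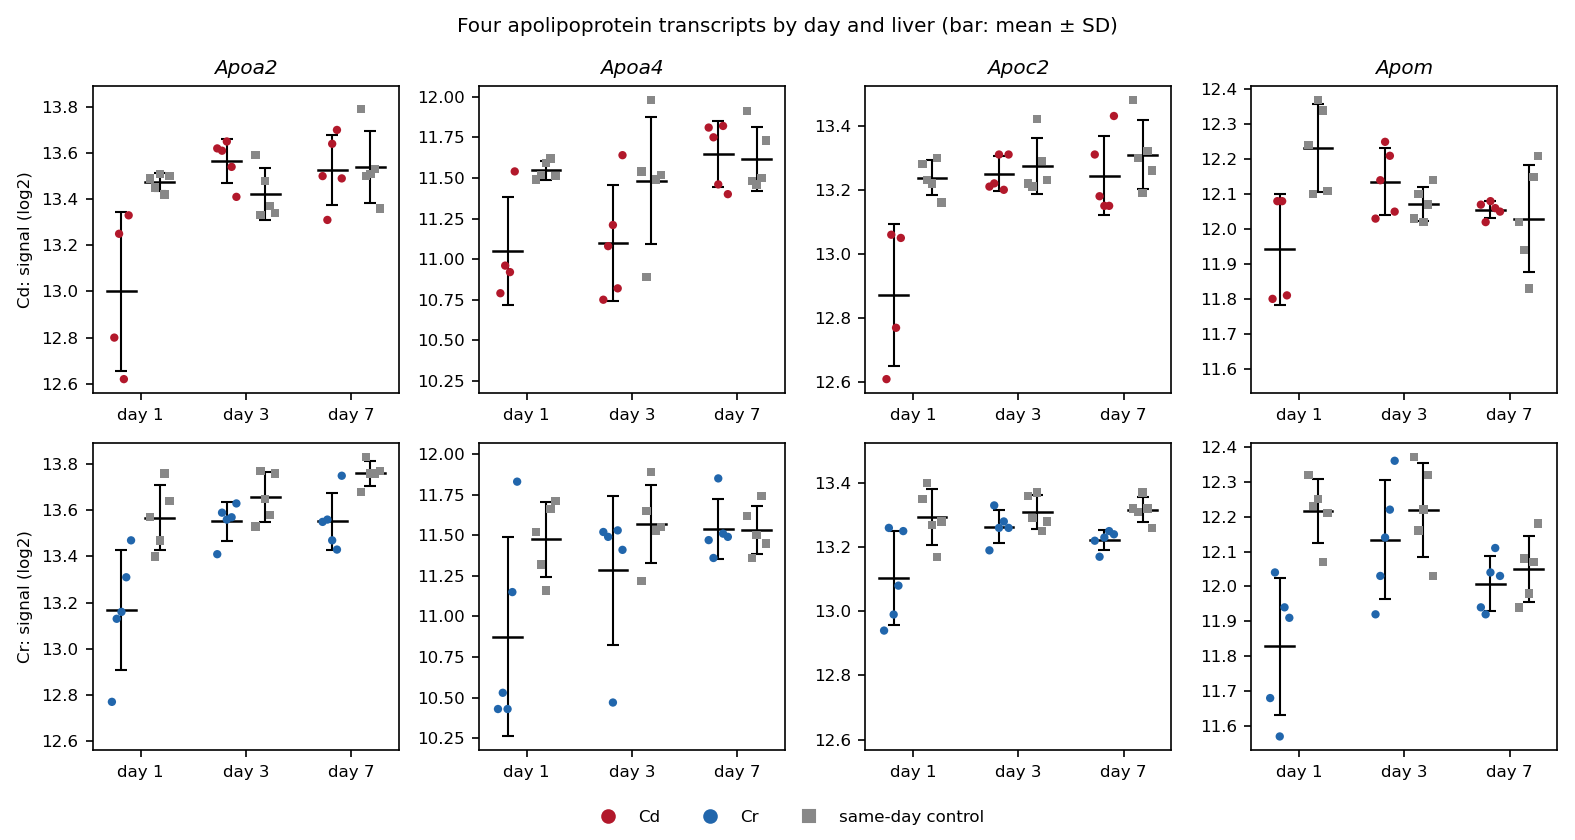
Signal (log2) of Apoa2, Apoa4, Apoc2 and Apom in each liver on days 1, 3 and 7, with circles for Cd (upper row) or Cr (lower row), grey squares for controls of the same day and bars for the mean ± SD. On days 3 and 7 exposed and control livers overlap in each panel, apart from Apoc2 on day 7 after Cr.

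Apoa5 had its largest mean differences on day 7 after Cd and on day 3 after Cr, and neither passed. On day 7 after Cd its signals were 11.50, 12.09, 11.23, 11.36 and 11.31, against 11.02, 10.93, 11.35, 11.34 and 11.24 in controls. The highest value was that of Cd liver 2, the liver with an Lcn2 signal of 12.53, and the log2 fold change of 0.32 (SE 0.14, limma adjusted p 0.577) did not pass. The control mean was 11.175 on day 7, against 11.44 and 11.42 on days 1 and 3. In Cd livers the mean was 11.50 on day 7, against 11.61 and 11.49. On day 3 after Cr, Apoa5 had 11.57, 11.82, 11.61, 11.62 and 11.78 in Cr livers, against 11.55, 11.27, 11.64, 11.29 and 11.57 in controls. All 5 Cr livers were above the mean of the controls (0.22, SE 0.09, limma adjusted p 0.435). The other transcripts on days 3 and 7 had log2 fold changes between -0.15 and 0.14 after both metals, apart from Apoa2 on day 7 after Cr, Apoa4 on day 3 and Apoa5.

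A direct test of the metals on day 1 singled out Apob, whose Cd effect exceeded its Cr effect by 0.18 (SE 0.06, limma adjusted p 0.0228). That is 1 of 10, against 28.3% of 13039 probe sets. The call was lost without Cr liver 1 (0.14, adjusted p 0.0768) and without Cd control liver 1 (0.16, adjusted p 0.0507). On days 3 and 7 the metals differed by the limma test for 0 of 10, against 0.00767% and 0.736% of probe sets, with 0 and 2 of the 10 at an unadjusted p of 0.05 or less, against 8.42% and 12.1%. The 2 were Apoa5 (0.38, limma adjusted p 0.334) and Apoa1 (-0.28, limma adjusted p 0.405).

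The group means of Apoa4, Apoa2 and Apom, the 3 with the largest day 1 change after either metal, were set beside those of 8370 genes with a signal of 6 or more. Over the 12 group means the genes most like Apoa4 were Ppard (Pearson r 0.95), a nuclear receptor for fatty acids, Bltp3b (0.94) and Bcl7a (0.93). Ppard had a day 1 log2 difference of -0.38 after Cd and -0.46 after Cr. Those most like Apoa2 were Mavs (0.98), an adaptor of antiviral signalling, Hal (0.98), which starts the breakdown of histidine, and Cyb5r3 (0.97), an electron carrier of lipid desaturation. Hal had day 1 differences of -0.90 after Cd and -0.61 after Cr. Those most like Apom were Slc17a2 (0.91), Grhpr (0.90), which disposes of glyoxylate, and Nid2 (0.89). Among the apolipoproteins themselves, Apoc2 had the pattern most like Apoa2 (0.92) and Apoc1 that most like Apoa4 (0.83), whereas Apoa1 and Apoa5 ran against Apoa4 (-0.64 each). All points share the same 59 arrays and their normalization.

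Genes of 6 further lists of lipoprotein metabolism were tested on day 1, and their counts stand against 26.6% of all probe sets called after Cd and 49.9% after Cr. Of 15 tested genes of lipoprotein assembly and secretion, 5 rose and 3 fell after Cd, and 1 rose and 3 fell after Cr, which is a smaller share than the background after Cr. The list medians were 0.01 after Cd and -0.02 after Cr, against 0.01 and 0.05 over all probe sets. After Cd the largest changes were Plin2, a lipid droplet coat protein (-0.65, SE 0.15, adjusted p 0.002), and Pdia3 (0.62, SE 0.09, adjusted p 7.26e-06), P4hb (0.49) and Surf4 (0.46). Pdia3 and P4hb are disulphide isomerases of the endoplasmic reticulum, P4hb being a subunit of the transfer protein that loads Apob with lipid, and Surf4 is a cargo receptor for lipoprotein export. After Cr, Dgat2, the last enzyme of triglyceride synthesis, fell by 0.74 (SE 0.12, adjusted p 9.94e-06), Cideb (-0.40) and Mia2 (-0.35) fell and Lman1 rose (0.30). Mttp, the lipid loading subunit of the transfer protein, passed after neither metal, at -0.10 (SE 0.09) after Cd and -0.14 (SE 0.09) after Cr.

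Of 9 tested enzymes that act on circulating lipoproteins, 0 rose, 4 fell and 5 did not pass after each metal, against 26.6% of all probe sets called after Cd and 49.9% after Cr, with list medians of -0.25 after Cd and -0.22 after Cr. Pon3, Lipc and Pon1 were among the 4 for both metals. For Pon3, an HDL-bound lactonase, the Cd change was -0.66 (SE 0.07, adjusted p 2.36e-07). The Cr change in Pon3 was -0.84 (SE 0.09, adjusted p 8.85e-08). Lipc, the hepatic lipase, had -0.34 after Cd and -0.81 after Cr, and Pon1, the HDL-bound paraoxonase, -0.25 after Cd and -0.37 after Cr. Pltp, which moves phospholipid between particles, completed the 4 after Cd at -1.71 (SE 0.26, adjusted p 1.64e-05). Kupffer cell markers moved with it, as given above, and their part in it was not tested. Lcat, which esterifies HDL cholesterol, completed the 4 after Cr at -0.17 (SE 0.07, adjusted p 0.0315).

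**Figure D4:**
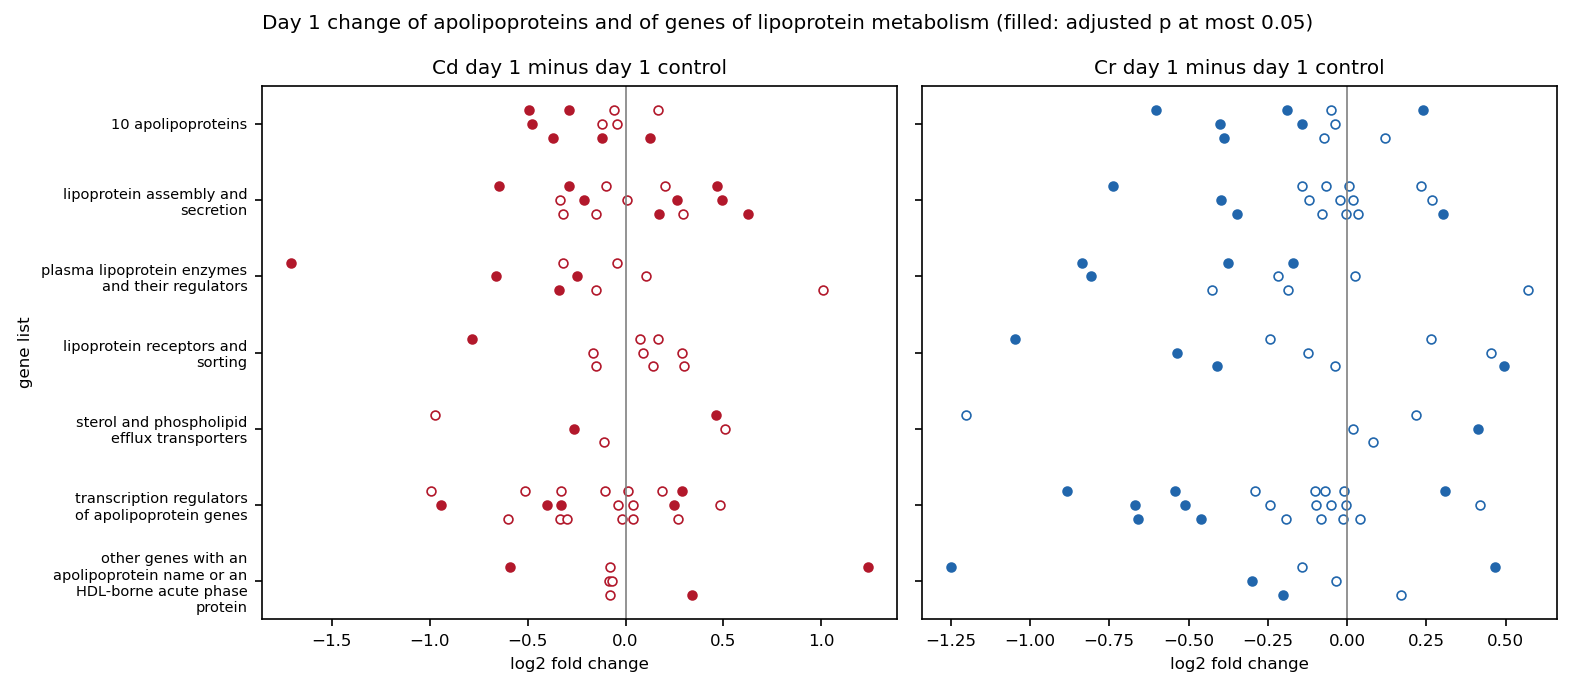
Day 1 log2 fold change of each tested gene, by list, for Cd on the left and Cr on the right, on separate horizontal scales. Filled points passed at an adjusted p of 0.05 or less, and among the plasma lipoprotein enzymes every filled point lies below 0.

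Of 9 tested lipoprotein receptors and sorting proteins, 0 rose and 1 fell after Cd, and 1 rose and 3 fell after Cr, below the background of 26.6% after Cd and of 49.9% after Cr. Lrp2, a large endocytic receptor, fell after both, by 0.78 after Cd (SE 0.18, adjusted p 0.00157) and by 1.05 after Cr (SE 0.14, adjusted p 8.66e-07). Lrp1, which takes up Apoe-bearing remnants, had -0.54 after Cr and Sorl1, a sorting receptor, -0.41, while Lsr, a receptor stimulated by lipolysis, rose by 0.49. List medians were 0.09 after Cd and -0.12 after Cr. Of 5 tested efflux transporters, 1 rose and 1 fell after Cd, and 1 rose and 0 fell after Cr, against the same 26.6% and 49.9%, with medians of -0.11 after Cd and 0.08 after Cr. Abcg1, which loads cholesterol onto HDL, rose by 0.46 after Cd (SE 0.14, adjusted p 0.0195) and by 0.41 after Cr (SE 0.09, adjusted p 0.000374), and was the 1 of the 5 called on day 3 after Cd (0.62, adjusted p 0.0188). Npc2, a lysosomal cholesterol carrier, fell by 0.26 after Cd.

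Of 20 tested transcription regulators of these genes, 2 rose and 3 fell after Cd, and 1 rose and 6 fell after Cr, with medians of -0.07 after Cd and -0.10 after Cr. Both counts were under the background of 26.6% after Cd and 49.9% after Cr. Srebf1, the master factor of fatty acid synthesis, fell by 0.94 after Cd (SE 0.20, adjusted p 0.000826) and by 0.66 after Cr (SE 0.13, adjusted p 0.000165). After Cd the bile acid receptor Nr1h4 (-0.40) and Creb3l3 (-0.33), a factor that drives Apoa4 and Apoc2 in mice, also fell and Srebf2 rose (0.29). After Cr the repressor Nr0b2 (-0.88), Foxa2 (-0.67) and Rora (-0.54) fell. Hnf4a, the hepatocyte factor that binds elements of the CAAAGTCC type, had -0.02 (SE 0.09) after Cd and -0.01 (SE 0.09) after Cr and passed after neither. Nr0b2 was the 1 of the 20 called on day 7 after Cr, at 1.65 (SE 0.29, adjusted p 0.0113).

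Of 7 tested genes that carry an apolipoprotein name or are acute phase proteins of HDL, 2 rose and 1 fell after Cd, and 1 rose and 3 fell after Cr, against 26.6% and 49.9% of all probe sets, with medians of -0.08 after Cd and -0.14 after Cr. Apol9a was higher after both, by 1.24 after Cd (SE 0.13, adjusted p 1.65e-07) and by 0.47 after Cr (SE 0.13, adjusted p 0.00385). Apon was lower after both, at -0.59 after Cd (SE 0.13, adjusted p 0.00172) and -1.25 after Cr (SE 0.15, adjusted p 2.49e-07). Clu, also called apolipoprotein J, rose by 0.34 after Cd, and Apoc4, the neighbour of Apoc2, fell by 0.30 after Cr, as did Apool, a protein of the mitochondrial inner membrane (-0.20). Apart from Abcg1 and Nr0b2, none of the genes tested in these 6 lists was called by limma on day 3 or 7.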

How the data were processed

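Per the labels and methods, the authors hybridised liver RNA to Affymetrix arrays and deposited log2 signals that Partek had computed with the RMA method, which corrects background, equalises the arrays by quantiles and summarises each probe set. The values were used as deposited, without the 57 control probe sets. Gene symbols came from the array annotation (20826 probe sets with 1 symbol, 436 with several, 9780 with none). No 2 arrays held identical values.

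The arrays of each metal entered a limma model of their own (limma 3.58.1, R 4.3.3, statmod 1.5.0), and exposed livers were compared with controls of the same day rather than with the pooled controls of the study, which were an alternative. Probe sets with a mean log2 signal of at least 6 over the arrays of a fit were tested, and a call needed a Benjamini-Hochberg adjusted p of 0.05 or less over all of them. The metals were compared as contrasts of 1 fit of all 59 arrays. Exact permutation tests, two-sided and unadjusted, used scipy 1.17.1 in Python 3.11.15. The smallest p they allow is 0.00794 for 5 against 5 livers and 0.0159 for 4 against 5. The scripts were tested on simulated data. The number of arrays limits the precision.

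All 10 apolipoproteins were named, with their further probe sets, with up to 4 genes of each pathway list by the size of the day 1 change among called genes, and with the 3 genes most like each of the 3 most changed members. Hnf4a, Mttp and the array checks were named outside this rule, after their values were seen. The members and lists were chosen with earlier results of these data known. Alternatives were pooled controls, plain variance, no filter or a filter by group, renormalization, median centring, trended robust moderation, array weights, the dimmest probe set, a replicate block, a 1.8-fold threshold, and each liver left out.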

Additional observations from a re-analysis of the deposited data

Results flagged for a closer look

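Among 120 groups of livers (10 transcripts in 12 groups), 5 held a liver far from the others by Dixon's criterion, which flags about 1 in 20 groups by chance. Apoa4 had 10.47 in Cr liver 3 of day 3, against 11.41 to 11.53 in the other 4. Apoa5 had 11.10 in Cr liver 2 of day 7, against 11.43 to 11.51 in the others. Apob had 13.91 in Cr control liver 2 of day 3, against 14.00 to 14.02 in the others. Apoc3 had 14.37 in Cd control liver 1 of day 1, against 14.29 to 14.31 in the others. Apoe had 13.90 in Cd control liver 1 of day 3, against 13.77 to 13.80 in the others.

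Several contrasts between days or metals passed the limma test at an adjusted p of 0.05 or less, as given in the report. The Cd effect of day 1 was lower than that of day 3 for Apoa2 (-0.62), Apom (-0.36) and Apoc2 (-0.35). It was lower than that of day 7 for Apoa2 (-0.47) and Apom (-0.32). The Cr effect on Apom was lower on day 1 than on day 7 (-0.35). The Cd effect on Apob exceeded the Cr effect on day 1 (0.18).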

How the results depend on the processing

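Of the day 1 calls, those of Apoa2 and Apoc2 after both metals and of Apom after Cr held under each setting other than the 1.8-fold threshold and with each liver left out; that threshold left 0 of the 10 called in every comparison. After Cd on day 1 the count of 6 called was 3 without the filter and 3 with array weights. For day 1 against day 3 after Cd, 3 became 1 without the filter. For day 1 against day 7, 2 became 0 without the filter, 1 with repeated quantile normalization and 1 with the replicate block. For day 1 against day 3 after Cr, 0 became 1 with median centring, 4 with array weights and 1 with the block. For day 1 against day 7, 1 became 0 without the filter and 2 with array weights. For Cd against Cr on day 1, 1 became 3 with pooled controls and 0 without the filter, with repeated quantile normalization or with the dimmest probe set. With 1 liver left out, the counts were 3 to 5 after Cd and 4 to 6 after Cr on day 1, 1 to 3 and 0 to 3 for day 1 against days 3 and 7 after Cd, 0 to 2 and 0 to 2 after Cr, 0 to 1 between the metals on day 1, and 0 to 0 in the other comparisons. The Cd count of 3 arose without control liver 1, 2 or 4 or Cd liver 4. No direction of a called transcript was reversed under any of these. The cause of the changes was not tested.

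Over all probe sets, the Cd day 1 calls were 1886 higher and 1561 lower, but 1655 and 1787 with arrays centred on the median and 1722 and 1734 after repeated quantile normalization. The Cr day 1 calls were 3993 higher and 2549 lower, but 2998 and 3521 with arrays centred on the median and 3228 and 3200 after repeated quantile normalization. In the replicate check, livers of the same number deviated together in 16 of 29 pairs (r over 0.1). The mean r was 0.13 for equal numbers and -0.03 for other numbers. Of the 29 exposed livers, 16 were closest to the control of their own number, out of 5 controls of the same day. Equal numbers thus shared some deviation. The labels do not say that equal numbers are pairs, so the block was only an alternative. The main fits and the permutation tests left this shared deviation out. With the block the counts changed as given above and no day 1 call did.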
